A study of Homo sapiens with 8 samples.

Results

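The comparison described here is that of human osteosarcoma cells carrying an shRNA against the palmitoyltransferase ZDHHC8 with their controls while both were under cisplatin. It covered every gene in the deposited expression table that passed a filter on low values, 13495 of 21123 genes, in 4 of the 8 libraries of the series. The knockdown cells stably expressed an shRNA against ZDHHC8 and received cisplatin for 48 h (shZDHHC8 cisplatin, 2 libraries). The control cells stably expressed a control shRNA, are labelled wild type and received cisplatin for the same 48 h (shControl cisplatin, 2 libraries). The same shZDHHC8 and shControl cells given PBS as vehicle for 48 h made up the other 4 libraries, 2 in each group, and were used to ask whether the effect of the knockdown differed without drug. All libraries were labelled as 143B, a line derived from the HOS osteosarcoma line, and as biological replicates of 1 batch. Nothing in the labels says that replicates came from separately grown cultures, so p-values measure the spread between these libraries, which may be technical. The sources used here do not give the cisplatin dose, the shRNA sequence or the number of clones behind each stable line. An effect of lower ZDHHC8 cannot be told apart from other differences between the lines, such as off-target effects of the shRNA. The effect of the knockdown below means the difference between shZDHHC8 and shControl cells.

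Palmitoylation attaches a fatty acid to cysteines of a protein and so moves it to membranes. It is carried out by the zinc finger DHHC enzymes, of which ZDHHC8 is a member, and reversed by thioesterases. In WNT signalling, secreted ligands that carry a fatty acid attached by PORCN bind Frizzled and LRP receptors, and beta-catenin (CTNNB1) then escapes its destruction complex and activates TCF target genes. Cisplatin crosslinks DNA, stalls replication, and engages DNA repair, p53, stress kinases and NF-kB, a transcription factor family that drives cytokine and chemokine genes. The series title ties ZDHHC8 to beta-catenin palmitoylation and cisplatin resistance, and the comparison asks which transcripts differ between shZDHHC8 and shControl cells once the drug is present. Palmitoylation itself was not measured.

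The values are taken as FPKM, read counts scaled by transcript length and by mapped reads, and the read depth behind them is unknown. Column totals were 391016 and 387781 FPKM in the shZDHHC8 cisplatin libraries and 367478 and 361060 FPKM in the shControl cisplatin libraries. Over the tested genes, log2 values of library pairs had a Pearson correlation that lay between 0.9948 and 0.9957 within groups and between 0.9568 and 0.9591 across the cisplatin groups. As a check of the label, the summed level of 10 osteoblast lineage markers was 226.6 to 230.6 FPKM in shZDHHC8 cells and 82.35 to 89.55 FPKM in shControl cells under cisplatin. Most of it was SPP1, osteopontin, at 196 and 197 FPKM in shZDHHC8 cells, against 63.4 and 56.5 FPKM in shControl cells. RUNX2, the osteoblast transcription factor, was at 9.0 to 12.6 FPKM over the 4 cisplatin libraries, whereas BGLAP, IBSP and COL1A2 stayed below 1 FPKM in all 8 libraries. SP7, ALPL, DMP1 and DLX5 were looked up and had no entry among the 21123 genes. Of the epithelial markers, KRT8 stood at 427 and 414 FPKM in shZDHHC8 cells and at 549 and 555 FPKM in shControl cells, while CDH1 and ESRP1 were below 0.1 FPKM in the cisplatin libraries. The sum of 13 epithelial markers was 844.0 to 896.4 FPKM in shZDHHC8 cells, against 1374 to 1377 FPKM in shControl cells. The sum of 9 mesenchymal markers, mostly vimentin, was 1717 to 1744 FPKM, against 1645 to 1652 FPKM. That gap was small, the column totals differed in the same direction, and the median log2 change of the 8 tested members was -0.001. Single markers went against their sums: SNAI2, an EMT transcription factor, was at 37.8 and 36.3 FPKM in shZDHHC8 cells, against 81.3 and 77.0 FPKM in shControl cells, and MSX2, a homeobox factor of bone, was at 4.35 and 3.51 FPKM in shZDHHC8 cells, against 8.17 and 7.67 FPKM in shControl cells. Of the 11 tested epithelial markers 7 fell and 3 rose, the latter being CLDN4, CLDN7 and ELF3. CLDN4 was at 14.8 and 14.5 FPKM in shZDHHC8 cells, against 3.70 and 4.41 FPKM in shControl cells. None of the 7 blood cell markers in the table reached 1 FPKM in any library, with CD3E at 0, and of the endothelial markers KDR alone passed 1 FPKM. The part of these marker differences in the results was not tested. In bulk RNA a smaller share of cells of a type and less RNA per cell cannot be told apart.

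ZDHHC8 (ENSG00000099904, chromosome 22, positions 20129456 to 20148007 of hg38), the targeted gene, was at 23.5 and 22.3 FPKM in shZDHHC8 cells, against 32.3 and 32.8 FPKM in shControl cells under cisplatin. In vehicle it was at 14.3 and 9.81 FPKM in shZDHHC8 cells, against 23.7 and 23.1 FPKM in shControl cells. Each shZDHHC8 library lay below each shControl library of the same treatment. The knockdown thus gave -0.49 ± 0.13 (log2 change ± SE) under cisplatin (limma adjusted p = 0.0102) and -0.92 in vehicle (limma adjusted p = 0.000472), and their difference of 0.43 ± 0.19 did not pass (limma adjusted p = 0.111). The knockdown of the transcript was partial: under cisplatin its mean in shZDHHC8 cells was 0.70 times that in shControl cells, and lay near that of shControl cells in vehicle. The cisplatin call ended without shZDHHC8 cisplatin replicate 2 (log2 change -0.46, limma adjusted p = 0.0558) and with no filter on low values (limma adjusted p = 0.0545). Log2 changes here are differences of mean log2(FPKM + 1), which understate the change of low genes.

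Across the transcriptome the knockdown under cisplatin was associated with wide but mostly small differences. At a limma adjusted p below 0.05, 4561 genes (33.8%) were higher and 3720 (27.6%) lower in shZDHHC8 cells, 61.4% in all, and the median log2 change of all tested genes was 0.042. A log2 change of at least 1 was reached by 371 of the higher genes (2.75%) and 231 of the lower genes (1.71%). The split rested on the scaling. Median-of-ratios scaling gave 3725 higher and 4575 lower genes, so that 44.9% of called genes were higher against 55.1% with the values as deposited, and scaling to the same total gave 3718 and 4613. Both scalings moved the median log2 change by less than 0.1, to -0.037 and -0.04. Counts of gene lists below are read against the shares of 33.8% and 27.6%.

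**Figure D1:**
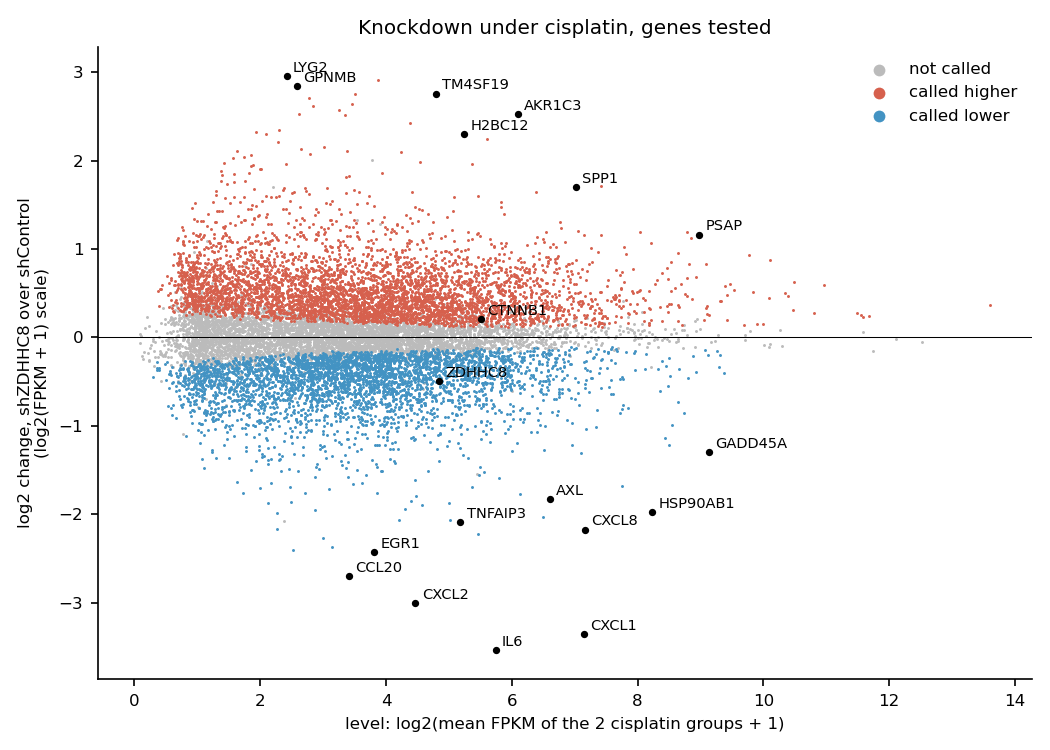
Each point is 1 of the 13495 tested genes, with its level (log2 of the mean FPKM of both cisplatin groups plus 1) on the horizontal axis and the log2 change of shZDHHC8 over shControl cells under cisplatin on the vertical axis. Called genes are coloured by direction. IL6 and CXCL1 lie lowest, at -3.54 and -3.35, while LYG2 lies highest, at 2.96, and ZDHHC8 itself sits at -0.49.

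The steepest falls were of inflammatory genes. IL6, the cytokine interleukin 6 (ENSG00000136244, chromosome 7, positions 22725884 to 22732002), was at 7.22 and 7.76 FPKM in shZDHHC8 cells, against 98.9 and 96.2 FPKM in shControl cells (log2 change -3.54 ± 0.08 (SE), limma adjusted p = 4.29e-08). Its mean was 13.0-fold lower in shZDHHC8 cells, and the groups lay far apart. CXCL1, a neutrophil chemokine (ENSG00000163739, chromosome 4, positions 73869393 to 73871308), was at 23.6 and 24.7 FPKM in shZDHHC8 cells, against 262 and 250.1 FPKM in shControl cells (log2 change -3.35 ± 0.045 (SE), limma adjusted p = 2.82e-09). CXCL2 was at 4.13 and 3.69 FPKM in shZDHHC8 cells, against 37.2 and 39.5 FPKM in shControl cells. CXCL3 was at 2.48 and 1.34 FPKM in shZDHHC8 cells, against 14.6 and 12.8 FPKM in shControl cells. These 3 chemokines are near-identical neighbours, so reads may be shared among them, and IL6 overlaps genes on the opposite strand. CXCL8, interleukin 8, was at 53.8 and 48.0 FPKM in shZDHHC8 cells, against 242 and 223 FPKM in shControl cells (log2 change -2.17 ± 0.071 (SE), limma adjusted p = 1.94e-07). CCL20, which attracts CCR6-bearing lymphocytes, was at 1.72 and 1.946 FPKM in shZDHHC8 cells, against 16.9 and 18.0 FPKM in shControl cells (log2 change -2.70 ± 0.12 (SE), limma adjusted p = 7.98e-07). TNFAIP3, the feedback inhibitor A20 of NF-kB, was at 13.3 and 12.4 FPKM in shZDHHC8 cells, against 58.0 and 57.5 FPKM in shControl cells (log2 change -2.08 ± 0.061 (SE), limma adjusted p = 1.38e-07). The chemokines and the feedback inhibitor were thus low in the same libraries. IL32 was at 11.1 and 11.8 FPKM in shZDHHC8 cells, against 51.5 and 50.6 FPKM in shControl cells. C3, the central complement component, was at 0.801 and 0.718 FPKM in shZDHHC8 cells, against 6.86 and 6.88 FPKM in shControl cells. Both shZDHHC8 libraries lay below both control libraries in each of these 9 genes. That separation was a condition for naming a gene among the largest changes, and for every other gene named here as higher or lower under cisplatin the groups did not overlap either, as in 11047 of the 13495 tested genes (81.9%).

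Of 33 tested NF-kB and secreted inflammation genes, 28 fell and 3 rose, with a median log2 change of -1.21 against 0.042 over all genes. The count of falls was 27 to 29 over the 8 fits that each left out 1 library, and 29 under either scaling. The 3 genes that rose were IL1A, IL1B and SOD2. IL1A, interleukin 1 alpha, was at 48.7 and 49.6 FPKM in shZDHHC8 cells, against 34.5 and 32.0 FPKM in shControl cells (log2 change 0.55 ± 0.057 (SE), limma adjusted p = 5.41e-05). IL1B was at 10.6 and 10.4 FPKM in shZDHHC8 cells, against 7.34 and 6.45 FPKM in shControl cells (log2 change 0.55 ± 0.078 (SE), limma adjusted p = 0.000347). SOD2, mitochondrial superoxide dismutase, was at 56.6 and 57.1 FPKM in shZDHHC8 cells, against 36.2 and 49.8 FPKM in shControl cells (log2 change 0.41 ± 0.13 (SE), limma adjusted p = 0.0212). The call of SOD2 ended under either scaling (limma adjusted p = 0.0689 by the median of ratios and 0.0685 with the same total) and without shControl cisplatin replicate 1, which left a log2 change of 0.19 (limma adjusted p = 0.112). It ended as well without shZDHHC8 cisplatin replicate 1 or 2 (limma adjusted p = 0.0704 and 0.0785). BIRC3, an inhibitor of apoptosis that NF-kB induces, was at 0.963 and 0.793 FPKM in shZDHHC8 cells, against 5.88 and 5.86 FPKM in shControl cells (log2 change -1.87 ± 0.095 (SE), limma adjusted p = 1.47e-06). In vehicle 23 of the 33 genes were lower and 4 higher in shZDHHC8 cells, where 25.0% and 26.7% of all genes were, with a median of -0.76. The effect under cisplatin lay below that in vehicle by the interaction test in 22 genes and above it in 4 (limma adjusted p below 0.05; 13.4% and 17.0% of all genes). CCL20 carried the widest gap of the genes named here, with a difference of -2.26 ± 0.17 (SE; limma adjusted p = 9.62e-05).

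**Figure D2:**
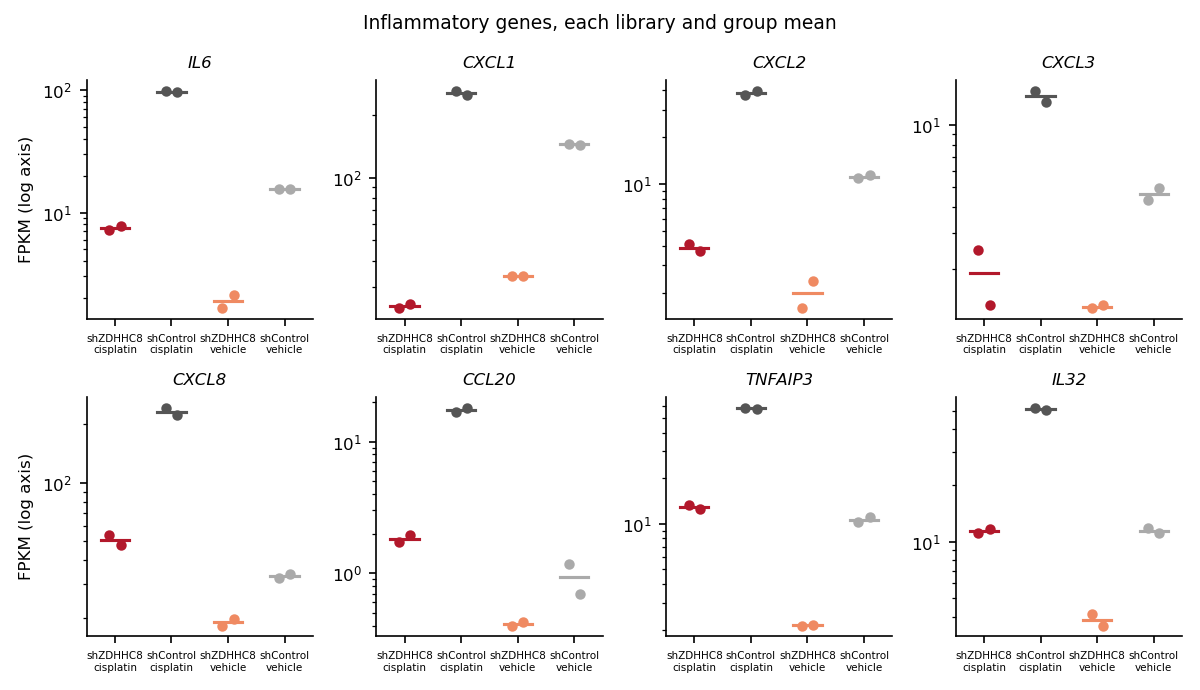
FPKM of 8 inflammatory genes in each library (points) with the group mean (bars) on log axes, 1 gene a panel, with shZDHHC8 cisplatin leftmost, then shControl cisplatin, shZDHHC8 vehicle and shControl vehicle. The shControl cisplatin libraries are the highest of the 4 groups in every panel, and the shZDHHC8 cisplatin libraries lie below them throughout.

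Promoter sequence was examined because these genes moved together and share a known regulator family. The list was itself drawn up around NF-kB, so its share of kB motifs describes the list and not the knockdown. The kB motif was searched as GGG, any 2 bases and TTTCC on both strands of the window from 250 bases before to 50 bases after each gene's start in RefSeq (GRCh38.p14). It was found in 523 of 27305 promoters (1.92%) and in 212 of the 9954 tested genes that had a window (2.13%). Of the 33 list members, 28 had a window, and 12 of these (42.9%) held the motif, all 12 of them among the genes that fell. That is to be read against the 28 of all 33 members that fell (84.8%), a share that includes members without a window. CXCL1, CXCL2 and CXCL3 are neighbouring paralogues with closely alike promoter stretches, so their 3 matches are not independent. CXCL8, which also fell steeply, was not among the 12. Of the other lists searched the motif was in 2 of 27 NRF2, 1 of 26 proteasome, 1 of 30 cholesterol and fatty acid synthesis and 0 of 22 lysosome promoters. The stretches around the motif in 8 of the steepest of them are shown 5′ to 3′ in the direction of the gene, with motif matches in capitals, because the 3 CXC chemokines carry the same 10 letters at nearly the same place.
CXCL1, chr4:73869289-73869348, plus strand: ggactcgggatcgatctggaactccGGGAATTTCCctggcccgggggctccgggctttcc
CXCL2, chr4:74099239-74099298, minus strand: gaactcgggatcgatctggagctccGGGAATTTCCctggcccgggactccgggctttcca
CXCL3, chr4:74038734-74038793, minus strand: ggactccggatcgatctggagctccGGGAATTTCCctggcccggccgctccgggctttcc
IL6, chr7:22727102-22727161, plus strand: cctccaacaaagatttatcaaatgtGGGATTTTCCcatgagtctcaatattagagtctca
CCL20, chr2:227813738-227813797, plus strand: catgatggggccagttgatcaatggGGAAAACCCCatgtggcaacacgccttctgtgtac
TNFAIP3, chr6:137867167-137867226, plus strand: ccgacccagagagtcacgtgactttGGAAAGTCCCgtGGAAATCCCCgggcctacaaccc
BIRC3, chr11:102317260-102317319, plus strand: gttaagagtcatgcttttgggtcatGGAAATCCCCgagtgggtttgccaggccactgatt
IL32, chr16:3065279-3065338, plus strand: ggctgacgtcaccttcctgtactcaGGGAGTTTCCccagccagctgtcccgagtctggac

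In the sequences of CXCL1 and CXCL3 the motif began 79 bases before the start, in that of CXCL2 78 bases and in that of IL6 73 bases before it. CCL20, TNFAIP3 and BIRC3 hold it on the opposite strand, and TNFAIP3 holds it at 2 places. A match is a description of the letters and does not show binding, which was not measured. The other 4 matching promoters, of NFKBIA, NFKB1, REL and NFKBIZ, belong to NF-kB subunits and their inhibitors, and these genes had log2 changes of -0.54, -0.90, -0.72 and -0.63.

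Several other steep falls were of secreted or growth-related genes. EGR1, an immediate-early zinc finger transcription factor, was at 3.09 and 3.73 FPKM in shZDHHC8 cells, against 22.0 and 23.4 FPKM in shControl cells (log2 change -2.43 ± 0.082 (SE), limma adjusted p = 2.06e-07). EDN1, which encodes the peptide endothelin 1, was at 15.4 and 13.99 FPKM in shZDHHC8 cells, against 72.4 and 71.4 FPKM in shControl cells. ESM1, a secreted proteoglycan, was at 0.788 and 0.889 FPKM in shZDHHC8 cells, against 8.37 and 9.01 FPKM in shControl cells. The shZDHHC8 libraries were the low ones for all 3 genes. PDZK1IP1, a small membrane protein, was at 6.32 and 5.88 FPKM in shZDHHC8 cells, against 28.1 and 29.4 FPKM in shControl cells. C17orf49 was at 1.15 and 2.42 FPKM in shZDHHC8 cells, against 9.71 and 14.7 FPKM in shControl cells, and overlaps RNASEK and a readthrough gene on its own strand, so its value is uncertain. Of 25 tested immediate-early and AP-1 genes, 14 fell and 5 rose, with a median of -0.235. KLF10, a TGF-beta-inducible repressor, was at 23.7 and 23.2 FPKM in shZDHHC8 cells, against 71.4 and 67.2 FPKM in shControl cells (log2 change -1.52 ± 0.071 (SE), limma adjusted p = 1.05e-06). SRF, serum response factor, was at 10.9 and 11.4 FPKM in shZDHHC8 cells, against 24.0 and 22.9 FPKM in shControl cells (log2 change -1.01 ± 0.062 (SE), limma adjusted p = 3.57e-06). ATF3, a stress-induced AP-1 partner, was higher, at 28.4 and 29.1 FPKM in shZDHHC8 cells, against 23.9 and 23.6 FPKM in shControl cells (log2 change 0.27 ± 0.053 (SE), limma adjusted p = 0.00233), which scaling to the same total reduced to 0.17. The immediate-early genes that rose numbered 3 under either scaling.

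Genes of the YAP and TEAD list were mostly lower. The list joins target genes, which answer to cell density and mechanical cues, with pathway members. The latter are YAP1, WWTR1, TEAD1, TEAD2, TEAD3, TEAD4, LATS1 and LATS2. Of 31 tested, 25 fell and 2 rose, with a median of -0.50. AXL, a receptor tyrosine kinase, was at 42.8 and 40.8 FPKM in shZDHHC8 cells, against 148 and 155 FPKM in shControl cells (log2 change -1.83 ± 0.046 (SE), limma adjusted p = 5.40e-08). NUAK2, a kinase induced by YAP, was at 4.26 and 4.41 FPKM in shZDHHC8 cells, against 15.6 and 16.1 FPKM in shControl cells (log2 change -1.66 ± 0.061 (SE), limma adjusted p = 3.33e-07). IGFBP3, a carrier of insulin-like growth factors, was at 27.9 and 25.8 FPKM in shZDHHC8 cells, against 81.8 and 83.2 FPKM in shControl cells (log2 change -1.59 ± 0.061 (SE), limma adjusted p = 4.64e-07). The number of falls was 23 to 25 when single libraries were left out, and 1 gene rose in each fit that left out a cisplatin or an shControl vehicle library and under either scaling. In vehicle 20 of the 31 genes were lower and 5 higher in shZDHHC8 cells. Among growth factor genes, NRG1, a ligand of ERBB receptors, was at 8.40 and 9.52 FPKM in shZDHHC8 cells, against 34.5 and 32.3 FPKM in shControl cells (log2 change -1.79 ± 0.071 (SE), limma adjusted p = 5.63e-07). The receptor EGFR was at 19.1 and 19.6 FPKM in shZDHHC8 cells, against 30.7 and 30.7 FPKM in shControl cells (log2 change -0.64 ± 0.049 (SE), limma adjusted p = 1.06e-05). ERBB2, by contrast, was higher, at 733 and 739 FPKM in shZDHHC8 cells, against 556 and 549 FPKM in shControl cells (log2 change 0.41 ± 0.049 (SE), limma adjusted p = 0.000122). INHBA, the activin A subunit, was lower, at 0.825 and 0.923 FPKM in shZDHHC8 cells, against 5.36 and 4.83 FPKM in shControl cells (log2 change -1.70 ± 0.11 (SE), limma adjusted p = 5.55e-06). TGFB1 was higher, at 60.9 and 58.4 FPKM in shZDHHC8 cells, against 25.7 and 26.1 FPKM in shControl cells (log2 change 1.17 ± 0.054 (SE), limma adjusted p = 1.01e-06). TGF-beta ligands, receptors and SMADs as a list were split, with 9 of 27 higher and 8 lower. The dual-specificity phosphatases and Sprouty proteins that damp MAP kinase signalling were also split, with 6 of 20 higher and 9 lower. DUSP1 was at 86.5 and 87.2 FPKM in shZDHHC8 cells, against 133 and 136 FPKM in shControl cells. SPRY2 was at 11.3 and 10.2 FPKM in shZDHHC8 cells, against 5.17 and 5.49 FPKM in shControl cells. DUSP5 was at 57.2 and 57.6 FPKM in shZDHHC8 cells, against 44.1 and 43.4 FPKM in shControl cells, and its rise was smaller than in vehicle (difference -0.93 ± 0.07, SE; limma adjusted p = 9.92e-05).

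Palmitoylation enzymes and their partners changed in both directions. Of 32 tested, ZDHHC8 among them, 13 rose and 8 fell, with a median of 0.066. The steepest fall was of ZDHHC18, a paralogous palmitoyltransferase of the Golgi, at 5.42 and 5.75 FPKM in shZDHHC8 cells, against 20.9 and 21.6 FPKM in shControl cells (log2 change -1.76 ± 0.058 (SE), limma adjusted p = 1.94e-07). PORCN, the endoplasmic reticulum enzyme that acylates WNT proteins, was at 21.3 and 21.1 FPKM in shZDHHC8 cells, against 56.1 and 56.3 FPKM in shControl cells (log2 change -1.37 ± 0.063 (SE), limma adjusted p = 9.81e-07). Both were thus low in shZDHHC8 cells, as was ZDHHC8 itself. HHAT, which acylates Hedgehog proteins, was at 0.827 and 0.766 FPKM in shZDHHC8 cells, against 2.35 and 2.27 FPKM in shControl cells. The depalmitoylase ABHD17C was at 2.43 and 2.22 FPKM in shZDHHC8 cells, against 5.30 and 5.47 FPKM in shControl cells. ZDHHC7 fell too (log2 change -0.46 ± 0.056 (SE), limma adjusted p = 0.000139), as did ZDHHC3 (-0.46) and ZDHHC13 (-0.22). Of the other depalmitoylases, LYPLA2, PPT1, LYPLA1 and LYPLAL1 rose, while ABHD17A, ABHD17B, ABHD10 and PPT2 did not pass the test. LYPLA2 was at 66.6 and 62.4 FPKM in shZDHHC8 cells, against 34.7 and 33.4 FPKM in shControl cells (log2 change 0.90 ± 0.051 (SE), limma adjusted p = 2.43e-06). PPT1, the lysosomal thioesterase, was at 80.8 and 78.9 FPKM in shZDHHC8 cells, against 48.8 and 49.4 FPKM in shControl cells (log2 change 0.69 ± 0.053 (SE), limma adjusted p = 1.15e-05). LYPLA1 rose by 0.35 and LYPLAL1 by 0.29. Among the transferases ZDHHC12 was at 30.7 and 31.7 FPKM in shZDHHC8 cells, against 19.4 and 19.4 FPKM in shControl cells (log2 change 0.66 ± 0.047 (SE), limma adjusted p = 7.56e-06). The accessory proteins GOLGA7 and SELENOK rose by 0.59 and 0.59, and SELENOK by 0.38 without shZDHHC8 cisplatin replicate 2. ZDHHC20, ZDHHC2, ZDHHC6, ZDHHC24, ZDHHC4 and ZDHHC17 rose by 0.49, 0.46, 0.40, 0.39, 0.37 and 0.33. The calls of ZDHHC3, ZDHHC13 and LYPLAL1 ended when single cisplatin libraries were left out, with limma adjusted p of 0.0501 to 0.0917, 0.0593 to 0.137 and 0.068 to 0.171. The LYPLAL1 call also ended under either scaling (limma adjusted p = 0.0976 and 0.097), with a pseudocount of 0.1 (0.059) and with no filter on low values (0.0586), as did that of ZDHHC3 with no filter (0.0669).

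**Figure D3:**
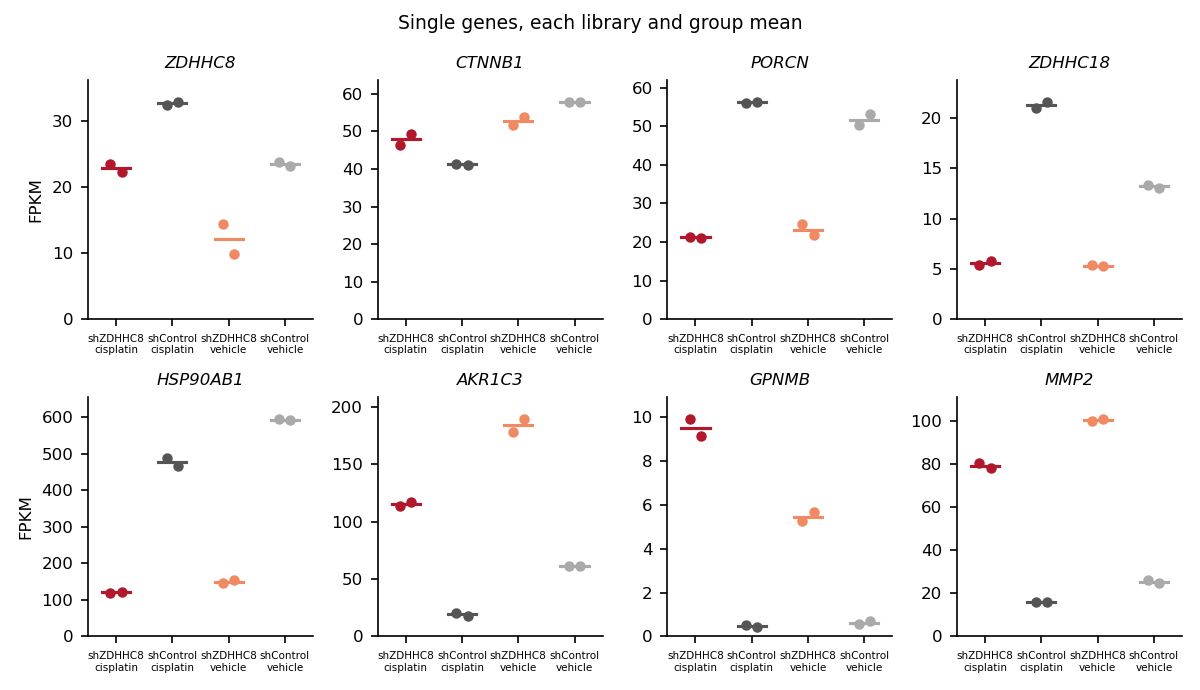
FPKM of 8 single genes in each library (points) with the group mean (bars), 1 gene a panel with an axis from 0, in the order shZDHHC8 cisplatin, shControl cisplatin, shZDHHC8 vehicle, shControl vehicle. ZDHHC8, PORCN, ZDHHC18 and HSP90AB1 are lower in shZDHHC8 cells in both treatments, AKR1C3, GPNMB and MMP2 are higher in both, and CTNNB1 is higher in shZDHHC8 cells under cisplatin and lower in vehicle.

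The transcript of beta-catenin itself, CTNNB1 (ENSG00000168036, chromosome 3, positions 41194741 to 41260096), stood under cisplatin at 46.4 and 49.4 FPKM in shZDHHC8 cells, against 41.4 and 41.1 FPKM in shControl cells (log2 change 0.21 ± 0.048 (SE), limma adjusted p = 0.0048). In vehicle it was at 51.7 and 53.7 FPKM in shZDHHC8 cells, against 57.8 and 57.9 FPKM in shControl cells, and the effects differed by 0.34 ± 0.068 (SE; limma adjusted p = 0.00676). The rise under cisplatin was 0.12 after either scaling, which did not pass (limma adjusted p = 0.0541 with median-of-ratios scaling and 0.0646 with the same total). Beta-catenin protein was not measured.

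Around beta-catenin, more genes fell than rose. Of 26 tested WNT ligands, receptors and modulators, 15 fell and 4 rose, with a median of -0.21. The co-receptor LRP5 was at 1.73 and 1.51 FPKM in shZDHHC8 cells, against 6.39 and 6.497 FPKM in shControl cells (log2 change -1.51 ± 0.081 (SE), limma adjusted p = 1.85e-06). Of the ligands, WNT10A was at 1.19 and 1.00 FPKM in shZDHHC8 cells, against 4.50 and 4.56 FPKM in shControl cells. WNT7B was at 18.2 and 17.8 FPKM in shZDHHC8 cells, against 26.3 and 26.8 FPKM in shControl cells. WNT3 and WNT7A also fell, with log2 changes of -0.43 and -0.20. Among receptors, ROR1, a receptor of WNT5A, had a log2 change of -0.94, RYK of -0.71, FZD8 of -0.56, FZD1 of -0.22 and FZD2 of -0.18, and all of these fell. FZD7 and FZD6 rose by 0.21 and 0.25, calls that ended under either scaling and that left 2 rises in the list. Secreted and membrane antagonists also moved: SFRP1 (-0.84), KREMEN1 (-0.78) and ZNRF3 (-0.35) fell. DKK1, an LRP antagonist, was lower, at 74.3 and 74.7 FPKM in shZDHHC8 cells, against 106 and 104 FPKM in shControl cells. DKK3, a divergent Dickkopf protein, was higher, at 60.5 and 66.9 FPKM in shZDHHC8 cells, against 38.8 and 32.8 FPKM in shControl cells, and WLS, the carrier of WNT proteins to the cell surface, rose by 0.51. In vehicle 13 of these genes were lower and 3 higher. With single cisplatin libraries left out, the calls of FZD1, FZD2, FZD6 and FZD7 each ended in at least 1 of those fits, with limma adjusted p of up to 0.142, 0.0501, 0.169 and 0.105. FZD1 was not called in the cisplatin libraries alone (0.0731), nor FZD6 with no filter on low values (0.0766).

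Of 29 tested genes of the destruction complex and the nuclear beta-catenin machinery, 13 fell and 4 rose, with a median of -0.16. TCF7L1, a mostly repressive TCF factor, was at 3.15 and 2.80 FPKM in shZDHHC8 cells, against 5.94 and 6.62 FPKM in shControl cells (log2 change -0.87 ± 0.093 (SE), limma adjusted p = 6.34e-05). CTNNBIP1, an inhibitor that blocks beta-catenin from TCF factors, was higher, at 12.6 and 11.5 FPKM in shZDHHC8 cells, against 5.16 and 5.22 FPKM in shControl cells (log2 change 1.08 ± 0.073 (SE), limma adjusted p = 5.62e-06). The scaffold APC rose by 0.36 and the corepressor TLE1 by 0.25. Among those that fell were the corepressors TLE3 (-0.58), TLE2 (-0.50) and TLE4 (-0.47), the coactivators PYGO2 (-0.59) and BCL9L (-0.16), and the signal transducers DVL3 (-0.49) and DVL2 (-0.35). The kinases GSK3A (-0.54) and CSNK1D (-0.29), the scaffolds AXIN1 (-0.24) and AMER1 (-0.36), and TNKS (-0.20), which marks axin for degradation, fell as well. The calls of TNKS and BCL9L ended when single libraries were left out, at limma adjusted p of up to 0.125 and 0.181. For BCL9L this held for each of the 4 cisplatin libraries and both shControl vehicle libraries, and its call ended as well without an intensity trend (0.0744) and with no filter on low values (0.0699).

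Of 27 tested WNT target genes, 15 fell and 3 rose, with a median of -0.23 against 0.042 over all genes, and 13 to 15 fell when single libraries were left out. The count covers 27 of 44 listed targets. AXIN2, LEF1, NKD1, NKD2, SP5, RNF43 and NOTUM did not pass the filter and LGR5 had no entry, so these were not tested. MYC was at 45.0 and 42.0 FPKM in shZDHHC8 cells, against 83.5 and 76.8 FPKM in shControl cells (log2 change -0.87 ± 0.061 (SE), limma adjusted p = 7.20e-06). CCND1, cyclin D1, was at 75.8 and 75.2 FPKM in shZDHHC8 cells, against 106 and 108 FPKM in shControl cells (log2 change -0.50 ± 0.041 (SE), limma adjusted p = 1.63e-05). In vehicle CCND1 stood the other way, at 89.5 and 90.9 FPKM in shZDHHC8 cells, against 46.7 and 47.7 FPKM in shControl cells, and the difference between the effects was -1.42 ± 0.058 (SE; limma adjusted p = 8.31e-06). The matricellular genes CCN1 and CCN2, which YAP also induces, fell, with log2 changes of -0.93 and -0.41. EDN1 was the steepest member, as given above. Smaller falls were seen for EPHB2 (-0.63), PLAUR (-0.61), FGF18 (-0.44), BIRC5 (-0.32), NRCAM (-0.27), PPARD (-0.17), VEGFA (-0.32) and JUN (-0.16). The calls of NRCAM, PPARD and VEGFA ended when single cisplatin libraries were left out, with limma adjusted p of up to 0.0735, 0.201 and 0.201. In a fit of the cisplatin libraries alone PPARD and VEGFA were not called (limma adjusted p = 0.055 and 0.0517), and VEGFA was not called with no filter (0.0976). The 3 genes that rose were SOX4 (0.29), ID2 (0.42) and CCN5 (0.55), and each was lower in shZDHHC8 cells in vehicle, at -0.63, -0.68 and -0.81. In vehicle 11 of the 27 targets were lower and 8 higher in shZDHHC8 cells. By the interaction test 11 lay lower under cisplatin than in vehicle and 6 higher.

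Genes of DNA replication and nucleotide synthesis were mostly lower, with 30 of 43 lower and 8 higher and a median of -0.36. TK1, thymidine kinase, was at 62.5 and 58.0 FPKM in shZDHHC8 cells, against 119 and 124 FPKM in shControl cells (log2 change -1.0 ± 0.055 (SE), limma adjusted p = 2.09e-06). The S-phase transcription factor E2F1 was at 23.4 and 23.7 FPKM in shZDHHC8 cells, against 47.5 and 48.2 FPKM in shControl cells (log2 change -0.99 ± 0.055 (SE), limma adjusted p = 2.12e-06). RRM2, the ribonucleotide reductase subunit, was at 36.4 and 39.0 FPKM in shZDHHC8 cells, against 64.5 and 59.9 FPKM in shControl cells (log2 change -0.71 ± 0.06 (SE), limma adjusted p = 1.96e-05). Under either scaling 2 members rose and 33 fell, and 2 to 5 rose when a cisplatin library was left out. Of 48 crosslink and recombination repair genes, 23 fell and 3 rose, with a median of -0.17, and no member rose under either scaling or without shControl cisplatin replicate 2, shZDHHC8 cisplatin replicate 1 or shZDHHC8 cisplatin replicate 2. FANCA, of the Fanconi anaemia core complex, was at 12.2 and 11.7 FPKM in shZDHHC8 cells, against 18.5 and 19.4 FPKM in shControl cells (log2 change -0.62 ± 0.10 (SE), limma adjusted p = 0.00087). POLQ, the polymerase of theta-mediated end joining, was at 6.03 and 6.20 FPKM in shZDHHC8 cells, against 10.0 and 9.77 FPKM in shControl cells. The nuclease EXO1 was at 10.3 and 9.62 FPKM in shZDHHC8 cells, against 15.1 and 14.5 FPKM in shControl cells. Nucleotide excision repair genes, which remove platinum adducts, were split, with 12 of 34 higher and 10 lower. RAD23B, a partner of the damage sensor XPC, was at 73.9 and 75.0 FPKM in shZDHHC8 cells, against 44.5 and 41.8 FPKM in shControl cells (log2 change 0.77 ± 0.051 (SE), limma adjusted p = 4.97e-06). The rises in that list numbered 8 under median-of-ratios scaling, 6 with the same total and 7 without shControl cisplatin replicate 2.

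Mitosis and kinetochore genes had 28 of 47 lower and 5 higher, with a median of -0.22. The motor KIF4A was at 6.78 and 6.26 FPKM in shZDHHC8 cells, against 15.4 and 14.2 FPKM in shControl cells (log2 change -1.07 ± 0.066 (SE), limma adjusted p = 3.79e-06). The kinetochore motor CENPE was at 3.24 and 3.46 FPKM in shZDHHC8 cells, against 6.91 and 6.68 FPKM in shControl cells. The checkpoint kinase BUB1 was higher, at 10.4 and 11.5 FPKM in shZDHHC8 cells, against 8.55 and 7.81 FPKM in shControl cells (log2 change 0.38 ± 0.082 (SE), limma adjusted p = 0.00342). Falls in this list numbered 21 to 29 when single libraries were left out. In vehicle 40 of the 47 were lower and none higher in shZDHHC8 cells, with a median of -0.425. The effect under cisplatin lay above that in vehicle in 17 genes and below it in 3 by the interaction test. Among G1 regulators, 7 of 15 fell and 4 rose. CDKN1A, the CDK inhibitor p21, was at 9.96 and 10.5 FPKM in shZDHHC8 cells, against 16.2 and 15.6 FPKM in shControl cells (log2 change -0.59 ± 0.063 (SE), limma adjusted p = 6.60e-05). CDK6 was at 9.82 and 9.62 FPKM in shZDHHC8 cells, against 16.7 and 16.7 FPKM in shControl cells (log2 change -0.72 ± 0.056 (SE), limma adjusted p = 1.12e-05). CDK4 was at 124 and 127 FPKM in shZDHHC8 cells, against 103 and 97.0 FPKM in shControl cells (log2 change 0.32 ± 0.052 (SE), limma adjusted p = 0.000679).

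Targets of p53 went both ways, 15 of 33 rising and 7 falling and a median of 0.20. GADD45A, a growth arrest and DNA damage gene, was at 325 and 323 FPKM in shZDHHC8 cells, against 806 and 789 FPKM in shControl cells (log2 change -1.30 ± 0.04 (SE), limma adjusted p = 1.39e-07). In vehicle GADD45A was at 107 and 104 FPKM in shZDHHC8 cells, against 91.3 and 92.6 FPKM in shControl cells, and the difference between the effects was -1.49 ± 0.056 (SE; limma adjusted p = 8.31e-06). AEN, a nuclease induced by p53, was at 15.7 and 15.8 FPKM in shZDHHC8 cells, against 27.7 and 28.8 FPKM in shControl cells (log2 change -0.81 ± 0.062 (SE), limma adjusted p = 1.15e-05). PERP, a desmosomal p53 effector, was higher, at 48.9 and 46.4 FPKM in shZDHHC8 cells, against 24.5 and 22.9 FPKM in shControl cells (log2 change 0.98 ± 0.062 (SE), limma adjusted p = 4.02e-06). CCNG1, cyclin G1, was at 17.7 and 16.0 FPKM in shZDHHC8 cells, against 8.29 and 8.59 FPKM in shControl cells. PMAIP1, the BH3-only protein NOXA, was at 81.2 and 85.5 FPKM in shZDHHC8 cells, against 48.2 and 46.9 FPKM in shControl cells. GADD45A and AEN were thus lower in shZDHHC8 cells while PERP, CCNG1 and PMAIP1 were higher. The BCL2 family and other death regulators were split, with 11 of 38 higher and 12 lower. BMF, a BH3-only protein released from the cytoskeleton, was at 5.22 and 5.49 FPKM in shZDHHC8 cells, against 0.631 and 0.769 FPKM in shControl cells (log2 change 1.90 ± 0.08 (SE), limma adjusted p = 6.94e-07). In vehicle its effect was 0.22, and the difference between the effects was 1.69 ± 0.11 (SE; limma adjusted p = 6.66e-05). BIRC2, a paralogue of BIRC3, was lower, at 28.9 and 31.0 FPKM in shZDHHC8 cells, against 59.7 and 58.5 FPKM in shControl cells (log2 change -0.96 ± 0.077 (SE), limma adjusted p = 1.49e-05).

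Genes of platinum handling moved in both directions, with 11 of 24 higher and 5 lower. SLC31A1, the copper transporter CTR1 that can import cisplatin, was at 18.8 and 19.1 FPKM in shZDHHC8 cells, against 9.75 and 9.84 FPKM in shControl cells (log2 change 0.89 ± 0.055 (SE), limma adjusted p = 3.73e-06). LRRC8A, the obligatory subunit of volume-regulated anion channels that also pass cisplatin, was at 58.1 and 58.2 FPKM in shZDHHC8 cells, against 33.5 and 33.9 FPKM in shControl cells (log2 change 0.77 ± 0.044 (SE), limma adjusted p = 2.67e-06). The transcripts of SLC31A1 and LRRC8A were thus both higher in shZDHHC8 cells, while drug uptake was not measured. The other channel subunits LRRC8C, LRRC8D and LRRC8E were tested but are not described here. The exporter ABCG2 was at 1.99 and 1.68 FPKM in shZDHHC8 cells, against 0.0607 and 0.212 FPKM in shControl cells (log2 change 1.32 ± 0.12 (SE), limma adjusted p = 2.40e-05), at low levels throughout. ABCC1, an exporter of glutathione conjugates, was lower, at 11.1 and 10.9 FPKM in shZDHHC8 cells, against 21.9 and 21.4 FPKM in shControl cells. ABCC4, an exporter of nucleotides, was lower too, at 3.51 and 3.73 FPKM in shZDHHC8 cells, against 8.01 and 7.73 FPKM in shControl cells.

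Aldo-keto reductases were among the largest gains. AKR1C3, an aldo-keto reductase of steroids and prostaglandins (ENSG00000196139, chromosome 10, positions 5035354 to 5107686), was at 114 and 117 FPKM in shZDHHC8 cells, against 20.8 and 17.6 FPKM in shControl cells (log2 change 2.53 ± 0.072 (SE), limma adjusted p = 1.26e-07), 6.00-fold higher by the means. Its neighbours moved with it. AKR1C1 was at 34.1 and 34.1 FPKM in shZDHHC8 cells, against 5.72 and 5.36 FPKM in shControl cells. AKR1C2 was at 18.8 and 18.9 FPKM in shZDHHC8 cells, against 1.77 and 2.14 FPKM in shControl cells. The 3 AKR1C genes are near-identical neighbours on chromosome 10, so the authors' counting may have split reads among them. Of 36 tested NRF2 and antioxidant genes, 29 rose and 2 fell, with a median of 0.62. EPHX1, microsomal epoxide hydrolase, was at 75.6 and 76.2 FPKM in shZDHHC8 cells, against 38.3 and 36.3 FPKM in shControl cells (log2 change 1.01 ± 0.05 (SE), limma adjusted p = 1.31e-06). The 2 exceptions were ABCC1 and HMOX1. HMOX1, haem oxygenase 1, was at 9.33 and 9.32 FPKM in shZDHHC8 cells, against 14.5 and 15.7 FPKM in shControl cells (log2 change -0.64 ± 0.063 (SE), limma adjusted p = 4.27e-05). Under either scaling 27 rose and 4 fell. In vehicle 28 were higher and 2 lower in shZDHHC8 cells, with a median of 0.34. The antioxidant response motif TGACNNNGC, searched on both strands, was in 7 of the 27 members with a promoter window (25.9%), against 3702 of 27305 promoters (13.6%) and 15.3% of the tested genes. It was more frequent in the lysosome and autophagy list, with 10 of 22 promoters (45.5%), and was in 5 of 26 proteasome promoters (19.2%), 3 of 28 NF-kB list promoters (10.7%) and 1 of 30 cholesterol and fatty acid synthesis promoters (3.33%). Of the 7 NRF2 list members with the motif 6 rose and 1 was not called, where 29 of all 36 members rose.

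In the lysosome and autophagy list 27 of 34 genes rose and 3 fell, with a median of 0.52. PSAP, prosaposin, was at 703 and 692 FPKM in shZDHHC8 cells, against 317 and 305 FPKM in shControl cells (log2 change 1.16 ± 0.04 (SE), limma adjusted p = 2.22e-07). The protease CTSD was at 373 and 354 FPKM in shZDHHC8 cells, against 156 and 161 FPKM in shControl cells. CTSL, another cathepsin, was at 129 and 129.7 FPKM in shZDHHC8 cells, against 62.0 and 64.3 FPKM in shControl cells. These abundant lysosomal transcripts were all higher in both shZDHHC8 libraries. CTSA was at 155 and 153 FPKM in shZDHHC8 cells, against 65.1 and 64.6 FPKM in shControl cells (log2 change 1.24 ± 0.041 (SE), limma adjusted p = 1.94e-07). NPC2, which carries cholesterol out of lysosomes, was at 128 and 129 FPKM in shZDHHC8 cells, against 57.6 and 53.8 FPKM in shControl cells (log2 change 1.19 ± 0.052 (SE), limma adjusted p = 7.38e-07). GPNMB, a lysosome-associated transmembrane glycoprotein, was near absent in control cells, at 9.93 and 9.15 FPKM in shZDHHC8 cells, against 0.512 and 0.432 FPKM in shControl cells (log2 change 2.84 ± 0.088 (SE), limma adjusted p = 1.51e-07). The lysosomal CLEAR motif, GTCAC followed by GTGAC, searched on both strands, was in 2 of 22 promoters of the list (9.09%), against 104 of 27305 promoters (0.381%) and 0.814% of the tested genes. It was also in 1 of 28 NF-kB list promoters (3.57%), that of TNFAIP3, which fell. The NRF2, cholesterol and proteasome lists held it in 0 of 27, 0 of 30 and 0 of 26 promoters. Nearly all proteasome subunits were higher, with 29 of 31 higher and 1 lower and a median of 0.49, and 28 or 29 were higher in every fit that left out a library. PSMB5, a catalytic core subunit, was at 134 and 139 FPKM in shZDHHC8 cells, against 73.4 and 71.4 FPKM in shControl cells (log2 change 0.90 ± 0.044 (SE), limma adjusted p = 1.22e-06). PSMD11, of the lid, was lower, at 38.4 and 37.7 FPKM in shZDHHC8 cells, against 50.1 and 47.5 FPKM in shControl cells (log2 change -0.35 ± 0.047 (SE), limma adjusted p = 0.000235).

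Metabolic genes were more often higher than lower. Of 32 glycolysis and hypoxia genes, 19 rose and 4 fell, with a median of 0.42. SLC2A1, the glucose transporter GLUT1, was at 134 and 129 FPKM in shZDHHC8 cells, against 71.1 and 73.2 FPKM in shControl cells (log2 change 0.86 ± 0.046 (SE), limma adjusted p = 1.85e-06). PGK1 was at 90.7 and 89.8 FPKM in shZDHHC8 cells, against 51.4 and 47.8 FPKM in shControl cells (log2 change 0.85 ± 0.054 (SE), limma adjusted p = 4.28e-06). ANGPTL4, a secreted inhibitor of lipoprotein lipase, was at 38.1 and 34.4 FPKM in shZDHHC8 cells, against 8.10 and 8.63 FPKM in shControl cells (log2 change 1.99 ± 0.068 (SE), limma adjusted p = 2.15e-07). ADM, adrenomedullin, was at 31.9 and 32.1 FPKM in shZDHHC8 cells, against 44.2 and 44.8 FPKM in shControl cells (log2 change -0.46 ± 0.052 (SE), limma adjusted p = 8.61e-05). Nuclear genes of the respiratory chain had 28 of 46 higher and 7 lower, with a median of 0.35. NDUFA1, of complex I, was at 74.8 and 76.5 FPKM in shZDHHC8 cells, against 33.9 and 37.1 FPKM in shControl cells (log2 change 1.07 ± 0.052 (SE), limma adjusted p = 1.20e-06). SDHD, of complex II, was lower, at 22.3 and 19.8 FPKM in shZDHHC8 cells, against 37.5 and 34.2 FPKM in shControl cells (log2 change -0.74 ± 0.071 (SE), limma adjusted p = 3.70e-05). The falls in that list numbered 2 to 6 when single libraries were left out. Of the 13 mitochondrially encoded transcripts 8 rose and none fell as deposited, while 2 fell under either scaling. In vehicle 2 were higher and 7 lower, with a median of -0.183, against 0.245 under cisplatin. The interaction lay above 0 in 12 genes and below 0 in none. The mitochondrial share of all FPKM overlapped under cisplatin, at 8.93% and 8.67% in shZDHHC8 cells, against 8.27% and 8.79% in shControl cells. MT-ND2 was at 2430.5 and 2379 FPKM in shZDHHC8 cells, against 1532 and 1663 FPKM in shControl cells (log2 change 0.59 ± 0.051 (SE), limma adjusted p = 2.10e-05).

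The other largest gains did not belong to a single list. LYG2, a goose-type lysozyme, was at 7.78 and 9.19 FPKM in shZDHHC8 cells, against 0.149 and 0.288 FPKM in shControl cells (log2 change 2.96 ± 0.16 (SE), limma adjusted p = 1.85e-06). MILR1, an inhibitory immunoglobulin-like receptor, was at 25.5 and 24.1 FPKM in shZDHHC8 cells, against 2.43 and 2.46 FPKM in shControl cells (log2 change 2.91 ± 0.069 (SE), limma adjusted p = 4.29e-08). TM4SF19, a tetraspan membrane protein, was at 47.8 and 46.7 FPKM in shZDHHC8 cells, against 6.17 and 6.10 FPKM in shControl cells, and overlaps a readthrough gene on its strand. SP140, a nuclear body protein, was at 17.3 and 18.5 FPKM in shZDHHC8 cells, against 1.99 and 2.06 FPKM in shControl cells (log2 change 2.64 ± 0.068 (SE), limma adjusted p = 5.99e-08). DPP4, a cell-surface peptidase, was at 15.5 and 15.0 FPKM in shZDHHC8 cells, against 1.66 and 1.80 FPKM in shControl cells (log2 change 2.57 ± 0.084 (SE), limma adjusted p = 1.94e-07). All of these stood below 10 FPKM in shControl cells. GASK1B, a Golgi-associated protein, was at 9.41 and 9.47 FPKM in shZDHHC8 cells, against 0.755 and 0.872 FPKM in shControl cells. AFP, alpha-fetoprotein, was at 4.91 and 5.73 FPKM in shZDHHC8 cells, against 0.501 and 0.0578 FPKM in shControl cells. SLC12A8, a solute carrier, was at 5.33 and 6.85 FPKM in shZDHHC8 cells, against 0.344 and 0.534 FPKM in shControl cells. H2BC12, a histone H2B gene with near-identical paralogues, was at 62.9 and 61.2 FPKM in shZDHHC8 cells, against 11.6 and 12.1 FPKM in shControl cells (log2 change 2.30 ± 0.088 (SE), limma adjusted p = 4.64e-07). For the low genes LYG2, AFP and SLC12A8 the log2 change depended on the pseudocount, at 4.78, 4.13 and 3.53 with a pseudocount of 0.1, against 2.96, 2.32 and 2.30 with 1.

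**Figure D4:**
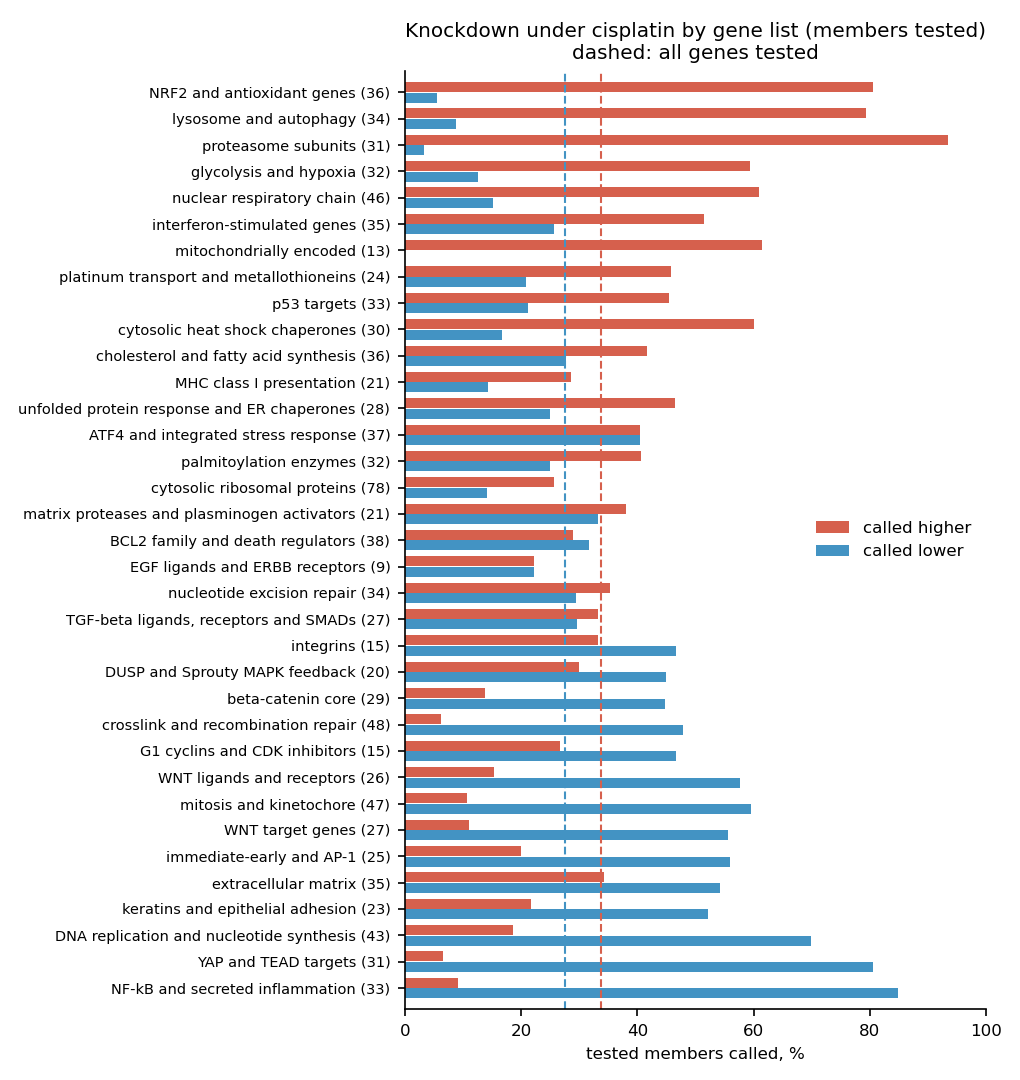
Share of each list's tested members called higher and lower in shZDHHC8 over shControl cells under cisplatin, in percent, with the number of members tested beside each name and lists ordered by median log2 change. Dashed lines mark all genes tested, 33.8% higher and 27.6% lower. Proteasome, NRF2 and lysosome lists have the highest shares of rises, and the NF-kB, YAP and replication lists the highest shares of falls.

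The chaperone HSP90AB1, the constitutive cytosolic HSP90 beta, was lower in shZDHHC8 cells in both treatments. It was at 120.1 and 121 FPKM in shZDHHC8 cells, against 489 and 466 FPKM in shControl cells (log2 change -1.98 ± 0.046 (SE), limma adjusted p = 4.29e-08). In vehicle it was at 145 and 155 FPKM in shZDHHC8 cells, against 594 and 591 FPKM in shControl cells, a log2 change of -1.98. The cytosolic heat shock chaperones as a list stood the other way, with 18 of 30 higher and 5 lower, and 3 lower without shControl cisplatin replicate 1 or shZDHHC8 cisplatin replicate 2. HSPB1, the small heat shock protein HSP27, was at 306 and 285 FPKM in shZDHHC8 cells, against 142 and 148 FPKM in shControl cells (log2 change 1.02 ± 0.066 (SE), limma adjusted p = 4.57e-06). DNAJB4, an HSP40 cochaperone, was at 8.93 and 9.42 FPKM in shZDHHC8 cells, against 3.31 and 3.08 FPKM in shControl cells (log2 change 1.28 ± 0.074 (SE), limma adjusted p = 2.72e-06). Of 28 unfolded protein response genes 13 rose and 7 fell, with 9 and 10 under either scaling.

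Matrix, protease and keratin genes changed in both directions. MMP2, gelatinase A (ENSG00000087245, chromosome 16, positions 55389700 to 55506691), was at 80.6 and 78.2 FPKM in shZDHHC8 cells, against 15.9 and 16.0 FPKM in shControl cells (log2 change 2.24 ± 0.048 (SE), limma adjusted p = 4.29e-08), and overlaps an antisense gene. MMP10, stromelysin 2, was at 7.33 and 6.67 FPKM in shZDHHC8 cells, against 2.33 and 1.71 FPKM in shControl cells. ADAMTS1, a matrix protease, was at 21.0 and 22.2 FPKM in shZDHHC8 cells, against 64.5 and 66.6 FPKM in shControl cells (log2 change -1.56 ± 0.049 (SE), limma adjusted p = 1.51e-07). Of 21 matrix proteases and plasminogen activators 8 rose and 7 fell. Of 35 extracellular matrix genes 12 rose and 19 fell, with a median of -0.245. FN1, fibronectin, was at 123 and 124 FPKM in shZDHHC8 cells, against 66.3 and 64.3 FPKM in shControl cells (log2 change 0.91 ± 0.043 (SE), limma adjusted p = 1.13e-06). LUM, lumican, was at 3.76 and 3.79 FPKM in shZDHHC8 cells, against 0.197 and 0.151 FPKM in shControl cells (log2 change 2.02 ± 0.10 (SE), limma adjusted p = 1.08e-06). COL12A1 was at 17.7 and 18.0 FPKM in shZDHHC8 cells, against 33.1 and 33.9 FPKM in shControl cells (log2 change -0.87 ± 0.046 (SE), limma adjusted p = 1.80e-06). Integrins were split, with 5 of 15 higher and 7 lower. ITGAV, which pairs with several beta subunits, was at 48.9 and 49.6 FPKM in shZDHHC8 cells, against 27.4 and 26.2 FPKM in shControl cells. ITGA3, a laminin-binding subunit, was at 153 and 149.9 FPKM in shZDHHC8 cells, against 235 and 237 FPKM in shControl cells. Of 23 keratins and epithelial adhesion genes 5 rose and 12 fell. KRT7, of simple epithelium, was at 232 and 203 FPKM in shZDHHC8 cells, against 509 and 504 FPKM in shControl cells (log2 change -1.22 ± 0.059 (SE), limma adjusted p = 1.17e-06). KRT17 was at 10.5 and 9.41 FPKM in shZDHHC8 cells, against 32.7 and 31.9 FPKM in shControl cells (log2 change -1.61 ± 0.063 (SE), limma adjusted p = 4.99e-07). KRT15 was higher, at 10.4 and 9.81 FPKM in shZDHHC8 cells, against 1.78 and 1.51 FPKM in shControl cells (log2 change 2.07 ± 0.11 (SE), limma adjusted p = 1.53e-06). CLDN4, a tight junction gene, was at 14.8 and 14.5 FPKM in shZDHHC8 cells, against 3.70 and 4.41 FPKM in shControl cells (log2 change 1.63 ± 0.10 (SE), limma adjusted p = 3.49e-06). These lists share members with the osteoblast, epithelial and mesenchymal marker sums given above, which differed between the groups in the same libraries. Of the tested osteoblast markers 4 of 6 rose and 1 fell, of the epithelial markers 3 of 11 rose and 7 fell, and of the mesenchymal markers 1 of 8 rose and 2 fell. MSX2 was the osteoblast marker that fell (log2 change -0.86 ± 0.10 (SE), limma adjusted p = 0.000129). SNAI2 (log2 change -1.08 ± 0.053 (SE), limma adjusted p = 1.24e-06) and ZEB1 were the mesenchymal markers that fell.

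Much of the difference between shZDHHC8 and shControl cells was also present without drug. The vehicle comparison shares no library with the cisplatin comparison. In vehicle 3602 genes were higher (26.7%) and 3373 lower (25.0%) in shZDHHC8 cells. Of the genes higher under cisplatin 2506 were also higher in vehicle, 54.9% of the cisplatin list and 69.6% of the vehicle list. Of the genes lower under cisplatin 2178 were also lower in vehicle, 58.5% and 64.6% of the lists. Across the 13495 genes the log2 changes of the treatments had a Pearson's r of 0.667 and a Spearman's rho of 0.636, a description over genes, which are not independent replicates. The SD of the log2 changes over genes was 0.496 under cisplatin and 0.433 in vehicle. The interaction test called 4104 genes (30.4%) as differing between the treatments, 2298 of them above 0 (17.0%) and 1806 below 0 (13.4%). Of these, 243 were called higher under cisplatin and lower in vehicle, and 249 the reverse.

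**Figure D5:**
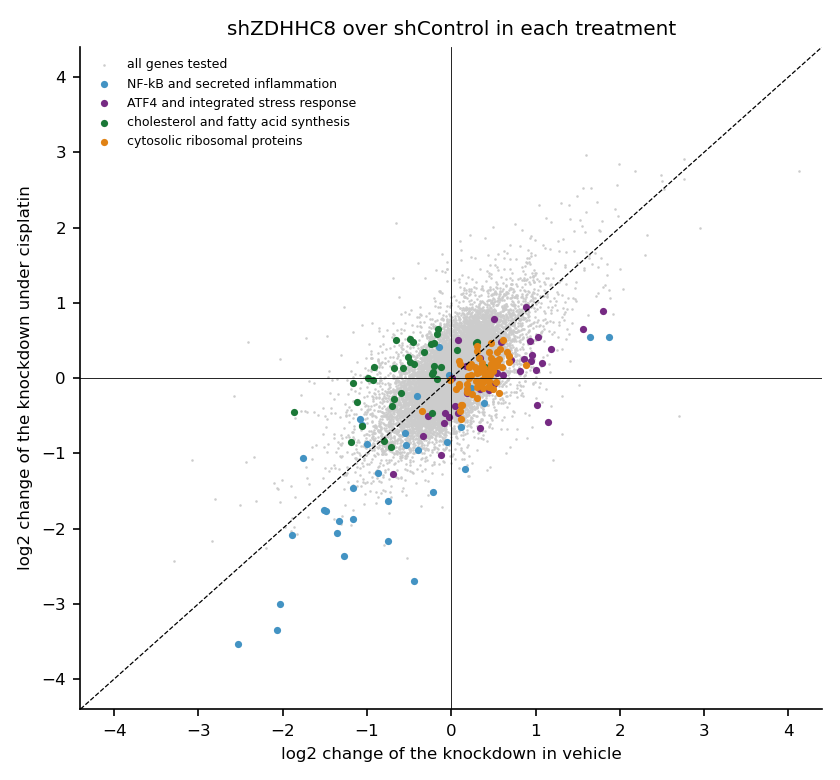
Log2 change of shZDHHC8 over shControl cells under cisplatin (vertical) and in vehicle (horizontal) for all tested genes, with 4 gene lists coloured and the line of equal change dashed. Cholesterol and fatty acid synthesis genes lie mostly above the line, with a median of 0.14 under cisplatin and -0.49 in vehicle, and ATF4 targets and ribosomal proteins lie mostly below it.

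Cholesterol and fatty acid synthesis genes stood differently in the treatments. Under cisplatin 15 of 36 were higher and 10 lower in shZDHHC8 cells, with a median of 0.14. In vehicle 3 were higher and 29 lower, with a median of -0.49, and the interaction lay above 0 in 28 genes and below 0 in none. HMGCS1, an early enzyme of the mevalonate pathway, was at 23.1 and 25.2 FPKM in shZDHHC8 cells, against 17.5 and 15.8 FPKM in shControl cells under cisplatin (log2 change 0.51 ± 0.066 (SE), limma adjusted p = 0.000204). In vehicle HMGCS1 was at 23.4 and 23.8 FPKM in shZDHHC8 cells, against 36.9 and 38.6 FPKM in shControl cells, and the difference between the effects was 1.17 ± 0.094 (SE; limma adjusted p = 0.00014). SQLE, squalene epoxidase, had effects of 0.52 under cisplatin and -0.49 in vehicle. The sterol response motif TCACNCCAC, searched on both strands, was in 1 of 30 promoters of the list (3.33%), against 313 of 27305 promoters (1.15%). It was no rarer in other lists, with 1 of 22 lysosome (4.55%), 1 of 26 proteasome (3.85%) and 1 of 27 NRF2 promoters (3.70%). In the NF-kB list it was in 0 of 28. ABCA1, the cholesterol exporter, was at 3.15 and 3.08 FPKM in shZDHHC8 cells, against 7.02 and 6.58 FPKM in shControl cells.

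Among interferon-stimulated genes 18 of 35 rose and 9 fell under cisplatin, with a median of 0.25. In vehicle 3 were higher and 16 lower, with a median of -0.25. The interaction lay above 0 in 24 genes and below 0 in none. The largest gains were of IFI35 and IFI27. IFI35 was at 33.9 and 33.6 FPKM in shZDHHC8 cells, against 11.5 and 12.2 FPKM in shControl cells (log2 change 1.44 ± 0.089 (SE), limma adjusted p = 3.66e-06). IFI27 was at 27.1 and 30.5 FPKM in shZDHHC8 cells, against 10.9 and 10.4 FPKM in shControl cells (log2 change 1.35 ± 0.084 (SE), limma adjusted p = 3.82e-06). IFIT3, an antiviral RNA-binding protein, was at 7.51 and 7.80 FPKM in shZDHHC8 cells, against 3.87 and 3.09 FPKM in shControl cells (log2 change 0.96 ± 0.089 (SE), limma adjusted p = 3.11e-05). Other members went the other way. IDO1, which degrades tryptophan, was lower, at 0.971 and 1.42 FPKM in shZDHHC8 cells, against 3.70 and 3.59 FPKM in shControl cells (log2 change -1.09 ± 0.12 (SE), limma adjusted p = 9.05e-05). IRF1, an interferon-responsive transcription factor, was at 9.45 and 8.45 FPKM in shZDHHC8 cells, against 15.5 and 13.99 FPKM in shControl cells (log2 change -0.66 ± 0.075 (SE), limma adjusted p = 9.21e-05). The lower genes numbered 5 to 10 when single libraries were left out. Of 21 class I antigen presentation genes 6 rose and 3 fell, and 6 fell under either scaling. B2M, the light chain of class I molecules, was at 602 and 592 FPKM in shZDHHC8 cells, against 402 and 341 FPKM in shControl cells (log2 change 0.69 ± 0.071 (SE), limma adjusted p = 5.64e-05).

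ATF4 and integrated stress response genes were divided evenly under cisplatin, with 15 of 37 higher and 15 lower and a median of 0.069. In vehicle 25 were higher and 3 lower, with a median of 0.51, and the interaction lay below 0 in 29 genes and above 0 in 1. PPP1R15A, the phosphatase subunit GADD34, was at 106 and 105 FPKM in shZDHHC8 cells, against 209 and 222 FPKM in shControl cells (log2 change -1.02 ± 0.051 (SE), limma adjusted p = 1.30e-06). SHMT2, the mitochondrial serine hydroxymethyltransferase, was at 52.4 and 52.2 FPKM in shZDHHC8 cells, against 128 and 128 FPKM in shControl cells (log2 change -1.28 ± 0.042 (SE), limma adjusted p = 1.94e-07). NUPR1, a stress-induced nuclear protein, was higher, at 33.0 and 34.9 FPKM in shZDHHC8 cells, against 17.5 and 18.1 FPKM in shControl cells (log2 change 0.89 ± 0.06 (SE), limma adjusted p = 5.31e-06), by less than in vehicle (1.81). DDIT4, the mTORC1 inhibitor REDD1, was at 76.3 and 75.3 FPKM in shZDHHC8 cells, against 39.0 and 39.0 FPKM in shControl cells (log2 change 0.94 ± 0.042 (SE), limma adjusted p = 8.73e-07), with an effect of 0.89 in vehicle.

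Most cytosolic ribosomal protein genes did not pass the test under cisplatin, with 20 of 78 higher and 11 lower and a median of 0.065. Both scalings turned that balance, with 12 higher and 20 lower under median-of-ratios scaling and 12 and 22 with the same total. Without shControl cisplatin replicate 2 or shZDHHC8 cisplatin replicate 2 there were 13 higher, and without replicate 1 of either group 7 lower. In vehicle 66 were higher and 1 lower in shZDHHC8 cells, with a median of 0.38, and the interaction lay below 0 in 46 genes and above 0 in none. RPL34 was at 72.2 and 75.2 FPKM in shZDHHC8 cells, against 50.4 and 53.3 FPKM in shControl cells (log2 change 0.50 ± 0.058 (SE), limma adjusted p = 0.000108). RPL10A was at 289.6 and 288 FPKM in shZDHHC8 cells, against 432 and 414 FPKM in shControl cells (log2 change -0.55 ± 0.041 (SE), limma adjusted p = 9.99e-06). Many ribosomal protein genes have processed pseudogenes with which reads can be shared.

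Long non-coding genes were more often higher than protein-coding genes. Of 1154 tested, 547 (47.4%) were higher and 141 (12.2%) lower, with a median of 0.296, against 32.8% and 29.2% with a median of 0.022 among 11869 protein-coding genes. A gene could pass the filter through the 2 shZDHHC8 cisplatin libraries alone. Of tested genes of any class with a mean under 2 FPKM over the 8 libraries, 31.3% were higher and 19.1% lower. Both shares lie below those of all tested genes, 33.8% and 27.6%. Genes with a mean over 100 FPKM had 48.9% higher and 22.6% lower. The classes were not compared at matched levels. The 3 largest gains were of LINC02154, LINC02535 and LINC00520. LINC02154 was at 10.1 and 11.7 FPKM in shZDHHC8 cells, against 0.933 and 0.718 FPKM in shControl cells. LINC02535 was at 11.8 and 10.8 FPKM in shZDHHC8 cells, against 0.988 and 1.03 FPKM in shControl cells. LINC00520 was at 16.4 and 16.0 FPKM in shZDHHC8 cells, against 2.02 and 2.01 FPKM in shControl cells. LINC01511 was lower, at 2.73 and 2.86 FPKM in shZDHHC8 cells, against 8.25 and 7.70 FPKM in shControl cells (log2 change -1.24 ± 0.076 (SE), limma adjusted p = 3.59e-06), and overlaps a pseudogene on its strand. AC016026.1 was at 1.20 and 2.96 FPKM in shZDHHC8 cells, against 9.36 and 11.6 FPKM in shControl cells. AC133555.6 was at 2.24 and 2.41 FPKM in shZDHHC8 cells, against 7.78 and 6.83 FPKM in shControl cells, and both overlap other genes on their strand. The call of AC016026.1 ended without shControl cisplatin replicate 2 and without shZDHHC8 cisplatin replicate 1 (limma adjusted p = 0.0599 and 0.0893). Gene span ran with the change: of 3049 genes spanning under 10 kb 38.2% were higher and 21.9% lower, against 22.2% and 39.5% of 423 genes spanning over 300 kb. The medians of those classes were 0.121 and -0.105. Chromosome medians lay between -0.054, on chromosome 22, and 0.144, on chromosome 4, leaving out the mitochondrial genome.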

How the data were processed

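Poly(A)-selected RNA of 8 libraries was sequenced, per the labels' protocols. The authors deposited 1 table of gene values on hg38, per the submitters' processing notes. It names no unit. The authors' values are read here as FPKM, since they are not whole numbers and columns sum to different totals. The sources used here do not give the aligner, quantifier or strandedness. The read depth is unknown, so that precision was taken from the replicates.

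Values were not rescaled. Genes reaching 1 FPKM in 2 or more libraries were tested on log2(FPKM + 1) with limma 3.58.1 in R 4.3.3. The model had 4 group means and an intensity trend, with 4 residual degrees of freedom. The variance of each gene was pooled over the 4 groups and moderated towards the trend over genes, with 4.645 prior degrees of freedom. Benjamini-Hochberg adjustment ran over all 13495 genes, and an adjusted p below 0.05 was called. The fit was also run on simulated data with independent noise and few changed genes. In these data 61.4% of genes were called, so that run does not check the p-values here. Alternatives were a pseudocount of 0.1, other filters, no trend, the cisplatin libraries alone, a replicate block, a threshold on size, 2 scalings and leaving out each library.

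Named genes were ZDHHC8, CTNNB1, the 14 largest protein-coding rises and falls at 5 FPKM or more, the largest long non-coding changes, every called gene of the palmitoylation and WNT lists, and the leading members of other lists. From each of those other lists the text gives a selection made after their values were seen. The members and lists were chosen with earlier results of these data known. Overlaps with other genes were read from GENCODE 29, and promoters from RefSeq.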

Additional observations from a re-analysis of the deposited data

Results flagged for a closer look

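For 123 of the 196 genes named above, the effect of the knockdown under cisplatin differed from its effect in vehicle by the interaction test (limma adjusted p below 0.05), 62 above 0 and 61 below 0. Over all tested genes the test called 30.4%, and most of the genes named here were chosen for a large change under cisplatin, so their share is not independent of that choice. The values are differences of log2 changes, cisplatin minus vehicle.

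The inflammatory genes lay below 0 at -2.26 for CCL20, -1.42 for CXCL8, -1.32 for IL1B, -1.28 for CXCL1, -1.10 for IL1A, -1.09 for CXCL3, -1.0 for IL6, -0.97 for CXCL2, -0.70 for IL32, -0.70 for BIRC3 and -0.56 for BIRC2, and above 0 at 0.67 for C3 and 0.56 for SOD2. The immediate-early, growth factor and MAP kinase feedback genes included differences below 0 of -1.35 for INHBA, -1.05 for NRG1, -0.93 for DUSP5, -0.77 for DUSP1, -0.69 for KLF10 and -0.33 for SRF. Those above 0 were 0.86 for EGR1, 0.74 for TGFB1 and 0.61 for ERBB2. The YAP targets and other secreted genes were below 0 with -1.87 for ESM1, -1.42 for EDN1, -0.77 for NUAK2, -0.53 for AXL and -0.44 for CCN1, while 0.27 for IGFBP3 and 0.26 for CCN2 stood above 0. The palmitoylation enzymes lay below 0 at -0.59 for ZDHHC18 and -0.43 for HHAT, and above 0 at 0.77 for ZDHHC12, 0.40 for ZDHHC2, 0.40 for ZDHHC24, 0.39 for LYPLA2, 0.36 for ZDHHC7 and 0.28 for ZDHHC20.

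The WNT ligands, receptors and beta-catenin partners included differences below 0 of -1.04 for FZD8, -0.99 for ROR1, -0.72 for LRP5, -0.43 for TLE3, -0.35 for AXIN1, -0.33 for FZD1, -0.32 for SFRP1 and -0.26 for RYK. Those above 0 were 0.70 for WNT10A, 0.68 for TLE4, 0.61 for FZD2, 0.45 for APC, 0.37 for TLE1 and 0.34 for CTNNB1. The other WNT targets were below 0 with -1.42 for CCND1, -0.94 for MYC, -0.84 for PLAUR, -0.54 for JUN, -0.49 for EPHB2, -0.46 for NRCAM and -0.38 for PPARD, while 1.37 for CCN5, 1.1 for ID2 and 0.92 for SOX4 stood above 0. The replication, repair, cell cycle and death genes lay below 0 at -1.49 for GADD45A, -1.18 for AEN, -0.74 for CDK6, -0.47 for POLQ, -0.45 for FANCA, -0.41 for CDKN1A, -0.39 for E2F1 and -0.33 for EXO1, and above 0 at 1.69 for BMF, 0.75 for CCNG1, 0.56 for PERP, 0.56 for RAD23B and 0.52 for BUB1. The aldo-keto reductases, detoxification, lysosome and proteasome genes included differences below 0 of -0.32 for LRRC8A. Those above 0 were 0.96 for AKR1C3, 0.93 for AKR1C1, 0.85 for GPNMB, 0.70 for CTSD, 0.64 for EPHX1, 0.59 for CTSA, 0.57 for AKR1C2, 0.51 for PSMB5 and 0.50 for CTSL.

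The metabolic genes were below 0 with -1.35 for ADM and -0.96 for ANGPTL4, while 1.17 for HMGCS1, 1.01 for SQLE, 0.42 for NDUFA1, 0.41 for MT-ND2, 0.38 for PGK1 and 0.37 for SLC2A1 stood above 0. The interferon, antigen presentation, stress and chaperone genes lay below 0 at -0.91 for NUPR1, -0.90 for PPP1R15A, -0.67 for RPL10A and -0.58 for SHMT2, and above 0 at 1.99 for IDO1, 0.88 for HSPB1, 0.88 for IFI35, 0.75 for DNAJB4, 0.66 for IFIT3, 0.38 for IFI27 and 0.37 for B2M. The marker, matrix, adhesion and keratin genes included differences below 0 of -1.28 for ADAMTS1, -1.21 for SNAI2, -0.58 for KRT7, -0.53 for FN1 and -0.51 for ITGA3. Those above 0 were 1.48 for MMP10, 1.19 for KRT17, 0.88 for KRT15, 0.79 for SPP1, 0.47 for LUM, 0.30 for MMP2 and 0.28 for ITGAV. The remaining large changes were below 0 with -1.37 for TM4SF19 and -0.73 for AC133555.6, while 1.36 for LYG2, 1.26 for H2BC12, 1.02 for AFP, 0.90 for SLC12A8, 0.87 for GASK1B and 0.60 for DPP4 stood above 0.

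The sign of the difference does not say in which treatment the effect was larger. CCND1 was lower in shZDHHC8 cells under cisplatin (-0.50) and higher in vehicle (0.92), and GADD45A likewise (-1.30 and 0.19). SOX4, ID2 and CCN5 stood the other way, higher under cisplatin and lower in vehicle. IDO1 and C3 were lower in both treatments, and by less under cisplatin (-1.09 and -2.16) than in vehicle (-3.07 and -2.83). With 2 libraries a group, no group was large enough to look for a library far from the others.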

How the results depend on the processing

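With a log2 change of at least 1 required as well, 371 genes were higher, 231 lower and 265 differed from the vehicle effect. All other settings kept the 3 counts within 1.5 times. Leaving out single libraries gave 3759 to 4611 higher genes, 3027 to 3761 lower genes and 2892 to 3504 genes differing from vehicle. A group then left with 1 library was assumed to vary like the others. With the replicate block the counts were 4498, 3631 and 3758, and the calls of LYPLAL1, BCL9L and PPARD ended (limma adjusted p = 0.0558, 0.0604 and 0.0536). The replicate numbers were not taken to pair libraries, since deviations of same-numbered libraries from their group means correlated between -0.051 and 0.02. A filter at 5 FPKM left 9500 genes, with 3413 higher and 2940 lower. No filter gave 5102 and 3758, and a pseudocount of 0.1 gave 4527 and 3680. Both scalings turned the balance from 55.1% of called genes higher to 44.9% and 44.6%.

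Of 3123 recomputed values of the 196 named genes, 3054 kept their direction and their call and 69 kept their direction but lost the call, which touched 16 genes. None changed sign. Those 16 were ZDHHC8, CTNNB1, SOD2, AC016026.1, ZDHHC3, ZDHHC13, LYPLAL1, FZD1, FZD2, FZD7, FZD6, TNKS, BCL9L, VEGFA, NRCAM and PPARD. SOD2 lost it under either scaling, at limma adjusted p of 0.0689 and 0.0685. A pseudocount of 0.1 raised the log2 change of LUM to 3.83 and of ABCG2 to 3.10.

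Counts in lists moved by more than 1.5 times in a few cases besides those given above. Mitosis genes that rose numbered 3 and G1 genes that rose 2 under either scaling and at the lowest with single libraries left out. Lysosome genes that fell numbered 5. Class I genes that fell numbered 1 to 3, and UPR genes that rose 8 to 13, with single libraries left out. Depth is unknown, so the precision rests on 2 libraries in each of the 4 groups and on the variance trend shared over genes. The median SE of the knockdown under cisplatin was 0.0792.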
